A study of Mus musculus with 12 samples.

Results

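The members are 8 array probes, each a designed oligo of 60 bases, out of 42006 probes on the array. They were chosen by the measured genotype difference on these same arrays, being lower in Tabby than in wild-type eyelids at each of the 3 stages and called in the average over stages. The genotype differences below therefore describe the choice and support nothing. Wild-type and Tabby embryos of strain C57BL6/J gave eyelids on the embryonic days E14.5, E15.5 and E16.5. This makes 6 groups of 2 arrays each, and the labels name no agent given to any group. The labels call the arrays biological replicates but do not say whether embryos were pooled or which sex they were. Eyelid RNA carried Cy3 on every array. A reference carried Cy5, pooled from cultured mouse cell lines and embryonic stem cells. Each value is the log2 ratio of eyelid over reference signal after the dyes were balanced within each array by loess. A value of 0 thus means the usual ratio of that array for spots of like intensity, not equal raw signal in both channels. A difference of 1 between arrays means a doubling of that ratio. Levels of different probes cannot be ordered by it.

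Tabby is a mutation of Eda, the X-linked gene for the ligand ectodysplasin. Ectodysplasin binds the receptor Edar on epithelial cells, which signals through the adaptor Edaradd to the transcription factor NF-kB, and this pathway controls the early development of hair follicles, teeth and several glands. In the eyelid it is needed for the Meibomian glands, which secrete the oily layer of the tear film and which Tabby mice lack. No probe carries a gene name or a mapped position in the data used here, so no role can be given for any member. The level of Eda and markers of the eyelid were for the same reason not analysed here. Whole eyelids were measured, and fewer cells of a type and less RNA per cell cannot be told apart.

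The sequences of the members are printed 5′ to 3′ as the array design gives them, because beside the identifiers they are the only identity the members have. Capitals mark AATAAA in the first and the bases that 2 neighbouring probes share in the overlapping ones.
Z00036698-1: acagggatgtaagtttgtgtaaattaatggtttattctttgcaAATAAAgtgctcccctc
Z00074100-1: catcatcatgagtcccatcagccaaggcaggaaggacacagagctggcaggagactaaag
Z00011044-1: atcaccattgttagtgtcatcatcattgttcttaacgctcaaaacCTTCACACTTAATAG
Z00074464-1: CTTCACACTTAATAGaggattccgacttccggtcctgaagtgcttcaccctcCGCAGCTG
Z00054827-1: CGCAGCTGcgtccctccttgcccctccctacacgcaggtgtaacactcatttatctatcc
Z00028839-1: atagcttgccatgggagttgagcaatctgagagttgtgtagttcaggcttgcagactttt
Z00056511-1: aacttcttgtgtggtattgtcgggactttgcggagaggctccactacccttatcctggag
Z00034659-1: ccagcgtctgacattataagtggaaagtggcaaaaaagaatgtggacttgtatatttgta

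The end of Z00011044-1 is the start of Z00074464-1 over 15 bases, and no other probe on the array holds that run on either strand. The end of Z00074464-1 is the start of Z00054827-1 over 8 bases, a run that 37 other probes hold on either strand, 1 of them at its start. Joined end to end, the 3 probes would span 157 bases. No position was mapped, so whether they read 1 transcript was not tested. If they do, they are not 3 separate observations and the 8 members stand for 6 separate stretches. Their spots lay apart on the slide, in rows 212, 104 and 86 of the array.

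AATAAA, the common form of the polyadenylation signal, stands 11 bases before the end of Z00036698-1. Reading as printed, 6.93% of all probes on the array hold AATAAA and 1 of the 8 members does. On the opposite strand 3.36% of all probes and 1 member hold it, again Z00036698-1, where it is printed as tttatt without capitals. The motif thus does not tell which strand this probe reads. The variant ATTAAA is in no member, against 3.19% of all probes as printed and 2.3% on the opposite strand. GC content ran from 35% in Z00036698-1 and Z00011044-1 to 56.7% in Z00054827-1, inside the 5th to 95th percentile of all probes (33.3% to 58.3%, median 43.3%). The longest run that each member shared with a probe outside the set was 12 to 15 bases. No member matched any of 32851 RefSeq mouse promoter windows over 30 bases, or any of 1005 RefSeq miRNA hairpins over 20 bases.

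All 8 members were well above background in both channels on all 12 arrays, with no saturated or outlying spot. Of all probes, 71.1% to 79.1% per array had a Cy3 signal well above background, and replicate arrays correlated at r = 0.977 to 0.994 over probes. The 32981 probes that were well above background on both arrays of at least 1 group were tested, all 8 members among them. Each slide held the 4 arrays of 1 stage, so stage and slide cannot be told apart. Within each slide wild type took positions 1 and 2 and Tabby positions 3 and 4, so genotype and array position cannot be told apart. With 2 arrays a group, the number of arrays limits precision throughout.

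Averaged over the 3 stages, limma called 8 of 8 members lower in Tabby at a Benjamini-Hochberg adjusted p under 0.05, against 0.0273% of all tested probes (9 probes). At E16.5 it called 6 of 8, against 0.0788%, and the exceptions were Z00036698-1 and Z00011044-1. At E14.5 and at E15.5 it called no probe, 0% of those tested, while 793 and 2210 probes had an unadjusted p under 0.05. At each stage taken alone, both Tabby arrays lay below both wild-type arrays for 8 of 8 members. That held for 15.9% of tested probes at E14.5, 14.3% at E15.5 and 14.3% at E16.5, and at every stage for 239 probes (0.725%). These counts follow from the choice of members. Median centring of each array in place of loess left 1 of the 8 stage-averaged calls, that of Z00036698-1, with an adjusted p of 0.553 for the other 7 in limma. At E16.5 the 6 calls became 0 with median centring, with processed signals and loess, and with the authors' deposited table. Over 21 alternative settings the stage-averaged call was lost in 14 for Z00074100-1, 13 for Z00034659-1, 6 for Z00036698-1, 5 for Z00011044-1, 4 for Z00054827-1 and 2 for each of the other 3.

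Probe Z00036698-1 had the widest genotype gap among the members. At E14.5 its log2 ratios were 1.57 and 1.74 in wild type and -0.21 and -0.08 in Tabby. The E15.5 arrays gave 1.34 and 1.69 in wild type and -0.10 and 0.87 in Tabby. At E16.5 wild type gave 1.59 and 1.75 and Tabby -0.16 and -0.14. All 6 Tabby arrays lay below all 6 wild-type arrays, with a gap of 0.47 between the nearest ones. All but 1 of the Tabby arrays had slightly negative ratios, and replicate 2 at E15.5 lay well above them. On the ratio scale Tabby stood at 28.9% of wild type at E14.5, 45.8% at E15.5 and 28.4% at E16.5. The mean difference was -1.58 (SE 0.149), or 2.99-fold lower in Tabby. Its Tabby spots were dim, with Cy3 signals down to 125, and the background offset used here shrinks dim ratios. The mean difference was -2.02 with processed signals and loess, and -2.03 with the authors' deposited table. Leaving out either array of Tabby E16.5, wild-type E14.5 or Tabby E14.5 ended the call, with a limma adjusted p between 0.0519 and 0.119.

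Z00074100-1 also separated the genotypes on all arrays, with 0.16 between the lowest wild-type and the highest Tabby array. At E14.5 it read 0.55 and 0.35 in wild type and 0.08 and 0.12 in Tabby. At E15.5 it read 0.53 and 0.49 against -0.24 and 0.20, and at E16.5 0.90 and 0.78 against -0.18 and -0.33. The wild-type arrays were highest at E16.5 and the Tabby arrays lowest there. Tabby eyelids stood at 78.5% of wild type on the first day, 69.3% on the next and 46.6% on the last. The mean difference was -0.66 (SE 0.0749), or 1.58-fold lower. Across all tested probes, 33 (0.1%) had all 6 Tabby arrays below all 6 wild-type arrays, and among the members only Z00036698-1 and Z00074100-1 did.

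The 3 overlapping probes gave smaller differences that were close to each other. Z00011044-1 read -1.57 and -1.44 in wild type and -1.86 and -1.91 in Tabby at E14.5, -1.33 and -1.30 against -1.67 and -1.64 at E15.5, and -1.06 and -1.004 against -1.43 and -1.50 at E16.5. Z00074464-1 read -2.00 and -1.91 against -2.43 and -2.45 at E14.5, -1.70 and -1.65 against -2.13 and -2.06 at E15.5, and -1.41 and -1.40 against -1.92 and -2.00 at E16.5. Z00054827-1 read -1.80 and -1.74 against -2.08 and -2.07 at E14.5, -1.64 and -1.63 against -1.97 and -1.88 at E15.5, and -1.40 and -1.37 against -1.81 and -1.79 at E16.5. At every stage the 2 Tabby arrays lay below the 2 wild-type arrays for each of the 3 probes, and every array gave more reference than eyelid signal. The mean differences were -0.38 (SE 0.0337) for Z00011044-1, -0.49 (SE 0.0315) for Z00074464-1 and -0.34 (SE 0.0288) for Z00054827-1. Tabby was thus at 76.8%, 71.3% and 79.2% of wild type.

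The remaining 3 members differed more between E14.5 and E16.5 than between genotypes. By smaller margins this also held for Z00011044-1 (stage 0.45, genotype -0.38) and Z00074464-1 (0.51 and -0.49). It did not hold for Z00054827-1 (0.33 and -0.34). For Z00028839-1 the wild-type log2 ratios were 0.58 and 0.50 at E14.5, 1.02 and 1.23 a day later, and 1.70 and 1.63 at E16.5. Its Tabby ratios were 0.01 and 0.17, then 0.75 and 0.70, then 0.88 and 0.85 at the same stages. The genotypes were apart at each stage, and the gap was widest at E16.5, where Tabby stood at 57.5% of wild type after 73.1% and 75.6%. The mean difference was -0.55 (SE 0.0468).

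Z00056511-1 went from negative ratios at E14.5 to positive ratios at E16.5 in wild type. Its raw eyelid signal stayed below its raw reference signal on every array. Wild-type ratios were -1.27 and -1.27 at E14.5, then -0.53 and -0.51, then 0.61 and 0.54. Tabby ratios were -1.84 and -1.60, then -1.03 and -0.98, then -0.17 and -0.14, so that they stayed negative on every Tabby array. Tabby stood at 72.9%, 71.6% and 60.3% of wild type at the 3 stages, and the mean difference was -0.56 (SE 0.0437).

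Z00034659-1 had the smallest difference at E14.5. Its wild-type ratios were -0.51 and -0.47 at E14.5, -0.07 and 0.01 a day later, and 0.22 and 0.21 at E16.5. The Tabby ratios were -0.74 and -0.70, then -0.38 and -0.34, then -0.34 and -0.19. Tabby was at 85.3%, 79.6% and 71.5% of wild type, and the genotypes did not overlap at any stage. The mean difference was -0.35 (SE 0.0348).

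The change with stage, taken over the mean of both genotypes, is another contrast than the genotype difference that chose the members. Its tests use the same residual variances, however, and a choice by adjusted p favours probes with small ones, so the count of calls is not free of the choice. From E14.5 to E16.5, 6 of 8 members rose and none fell in limma's test, against 24.1% of all tested probes that rose and 28.7% that fell. With the overlapping probes taken as 1, the risers were 4 of 6 stretches. The median change over the members was 0.48, against -0.02 over all tested probes. This is a description of the list, in which the overlapping probes count separately.

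Z00056511-1 rose by 1.70 (SE 0.0535, 95% interval 1.58 to 1.82, limma adjusted p = 1.67e-07), which is 3.26-fold. Z00028839-1 rose by 0.95 (SE 0.0573, limma adjusted p = 2.36e-06) and Z00034659-1 by 0.58 (SE 0.0427, limma adjusted p = 6.85e-06). In all 3, and in the 3 overlapping probes, the E16.5 arrays of each genotype lay above that genotype's E14.5 arrays. How many of all tested probes had this order was not counted. The overlapping probes rose less, Z00074464-1 by 0.51 (SE 0.0386, limma adjusted p = 7.73e-06), Z00011044-1 by 0.45 (SE 0.0413, limma adjusted p = 2.57e-05) and Z00054827-1 by 0.33 (SE 0.0353, limma adjusted p = 6.52e-05). Median centring of each array in place of loess ended 3 of these calls. Under it Z00011044-1 changed by 0.22 (limma adjusted p = 0.155), Z00054827-1 by 0.14 (0.368) and Z00034659-1 by 0.35 (0.0508). Under the other 20 alternatives the highest adjusted p of these 3 probes stayed under 0.05.

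Z00036698-1 and Z00074100-1 did not pass the same test. The change of Z00036698-1 from E14.5 to E16.5 was 0.0031 (SE 0.183, 95% interval -0.41 to 0.42, limma adjusted p = 0.991). That of Z00074100-1 was 0.02 (SE 0.0917, 95% interval -0.19 to 0.22, limma adjusted p = 0.906). The intervals leave room for a change of up to 0.42 and 0.22 in size, so a smaller change was not detectable with these arrays. For Z00074100-1 the mean joins a wild-type change of 0.39 and a Tabby change of -0.36.

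Over the mean of both genotypes the rise was spread over both days. From E14.5 to E15.5, 6 of 8 members rose, against 13.5% of all tested probes, and from E15.5 to E16.5 the same 6 members rose, against 13.8%. Z00056511-1 rose by 0.73 (SE 0.0535, limma adjusted p = 4.68e-05) on the first day and by 0.97 (SE 0.0535, limma adjusted p = 1.19e-05) on the second. Z00028839-1 rose by 0.61 (SE 0.0573, limma adjusted p = 0.000152) and then by 0.34 (SE 0.0573, limma adjusted p = 0.00332). For Z00034659-1 the steps were 0.41 (SE 0.0427, limma adjusted p = 0.000252) and 0.17 (SE 0.0427, limma adjusted p = 0.0200). The larger step thus came late in Z00056511-1 and early in Z00028839-1 and Z00034659-1, and the difference between the steps was not tested. The second-day call of Z00034659-1 was lost in 4 of 20 alternatives, with adjusted p between 0.0100 and 0.642 over all of them. The steps of the overlapping probes were 0.14 to 0.31 on the first day and 0.19 to 0.24 on the second. In the eyelid channel alone the second-day step of Z00074464-1 was 0.03 (limma adjusted p = 0.753, 0.00487 to 0.753 over 20 alternatives). That of Z00054827-1 was 0.12 (limma adjusted p = 0.0584, 0.00446 to 0.496 over 20 alternatives), so both calls were lost there. The first-day call of Z00054827-1 (limma adjusted p = 0.0194) was lost in 7 of 20 alternatives, with adjusted p between 0.0164 and 0.958 over all of them. Median centring also ended the first-day calls of Z00011044-1, Z00074464-1 and Z00034659-1, leaving 2 of 8 members called on that day and 1 of 8, Z00056511-1, on the next. Over the settings that kept all 12 arrays, called rises among all tested probes ran from 1546 to 5129 and from 1408 to 4447.

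Taken by genotype, the second-day step was called in wild type for 6 of 8 members, against 8.58% of tested probes, and in Tabby for 1 of 8, Z00056511-1, against 7.77%. These steps use the arrays that chose the members and are given as descriptions. Z00056511-1 changed by 1.096 in wild type and 0.85 in Tabby. For Z00028839-1 the step was 0.53 in wild type and 0.14 in Tabby, and for Z00034659-1 it was 0.25 and 0.09. The overlapping probes changed by 0.25 to 0.28 in wild type and 0.13 to 0.19 in Tabby. The median step over the 8 members was thus 0.28 in wild type and 0.13 in Tabby on the second day. On the first day it went the other way, 0.23 in wild type and 0.35 in Tabby. Z00074100-1, Z00056511-1 and Z00034659-1 still had the larger first-day step in wild type. From E14.5 to E16.5 the medians were 0.51 and 0.44. Those over all tested probes lay between -0.02 and -0.01. Whether the steps differed between the genotypes was not tested.

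Set in order, the 6 group means of Z00036698-1 fell into a wild-type set of 1.67, 1.65 and 1.51 and a Tabby set of 0.39, -0.14 and -0.15. Neighbouring groups overlapped within each genotype and not between them. For Z00056511-1 the order followed stage first: Tabby at E16.5 (-0.16) stood above wild type at E15.5 (-0.52), and Tabby at E15.5 (-1.01) above wild type at E14.5 (-1.27). Each of its neighbours in that order was separate on both arrays.

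In Z00028839-1 and Z00034659-1, Tabby at E16.5 lay below wild type at E15.5 and above wild type at E14.5. The Tabby E16.5 mean was 0.86, between wild-type means of 1.13 and 0.54, for Z00028839-1. It was -0.27, between -0.03 and -0.49, for Z00034659-1, where Tabby at E15.5 and at E16.5 overlapped. In the 3 overlapping probes, Tabby at E16.5 overlapped wild type at E14.5. Their Tabby E16.5 means were -1.46, -1.96 and -1.80 for Z00011044-1, Z00074464-1 and Z00054827-1, beside wild-type E14.5 means of -1.51, -1.95 and -1.77. These orders join stages that were on separate slides.

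Because each value is a ratio, the channels were also taken singly, after normexp and quantile normalisation between arrays. In the eyelid channel the mean Tabby difference was -1.58 for Z00036698-1, -0.68 for Z00074100-1 and -0.68 for Z00028839-1. It was -0.54 for Z00056511-1, -0.45 for Z00074464-1, -0.37 for Z00011044-1, -0.32 for Z00054827-1 and -0.32 for Z00034659-1. All 8 were thus lower in Tabby in the eyelid signal alone. These are the same eyelid signals that enter the ratios by which the members were chosen, so this largely follows from the choice.

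The labels name the same reference for all arrays. Over all tested probes its difference between Tabby and wild-type arrays had a median near 0 and a 5th to 95th percentile of -0.06 to 0.07. Of the 8 members 6 lay inside that range, from -0.06 to -0.01. Z00036698-1 at -0.08 and Z00028839-1 at -0.16 lay below it. For Z00028839-1 the reference difference was -0.11 at E14.5, -0.12 at E15.5 and -0.24 at E16.5. Its eyelid signal differed by -0.52, -0.55 and -0.97 at those stages, so the ratio shows a smaller gap than the eyelid channel. Why the reference signal of this probe moved with genotype or array position was not tested.

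The difference between replicate arrays of a group does not depend on the genotype difference that chose the members, although its size enters their SEs. The SD of replicate 2 minus replicate 1 over all tested probes was 0.120 to 0.187 in 5 groups and 0.279 in wild-type E15.5. In Tabby E15.5 this difference was 0.97 for Z00036698-1 and 0.43 for Z00074100-1, where the SD over all probes was 0.167. It reached 0.4 in 314 tested probes (0.952%). For the other 6 members it was between -0.05 and 0.09. The Tabby E15.5 arrays thus differed in the same 2 members that did not pass the test between stages. In wild-type E15.5 replicate 2 was above replicate 1 in 7 of 8 members, against 54.7% of tested probes, and in Tabby E15.5 in 7 of 8, against 50.8%. In the other groups it was above in 3 (50.2%), 4 (53.8%), 5 (50.7%) and 6 (51.1%) of the 8 members. The overlapping probes count separately in these numbers, which disregard size. The median difference over the members was 0.04 in wild-type E15.5 and 0.06 in Tabby E15.5, small beside the SDs of 0.279 and 0.167. Leaving out Tabby E15.5 replicate 1 raised the first-day change of Z00036698-1 from 0.19 to 0.44. Leaving out replicate 2 of that group instead lowered it to -0.05.

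Over the 12 arrays, the 3 overlapping probes correlated with each other at r = 0.985 to 0.991. Z00028839-1 and Z00034659-1 correlated at r = 0.983, and Z00036698-1 and Z00074100-1 at r = 0.879. The lowest correlation within the set was r = 0.352, between Z00036698-1 and Z00056511-1. All these points share the groups, slides and reference of the arrays, and the shared genotype difference was fixed by the choice of members, so they are given as descriptions.

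The probes outside the set with the most similar profiles were sought among 7957 tested probes that were well above background on every array and varied with an SD of at least 0.2. Probe Z00020117-1 was closest to both Z00036698-1 (r = 0.923) and Z00074100-1 (r = 0.929). Its sequence, shown because it is also the first probe outside the threshold of the choice, holds AATAAA near its end, in capitals.
Z00020117-1: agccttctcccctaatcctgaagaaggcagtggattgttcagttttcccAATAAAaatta
Its wild-type ratios lay between -1.12 and -0.96 and its Tabby ratios between -1.78 and -1.37. The highest Tabby array was again E15.5 replicate 2, 0.25 above replicate 1. Z00044277-1 was next closest to Z00036698-1 (r = 0.883), and its Tabby E15.5 replicates differed by 0.49. Z00005214-1 was next for Z00074100-1 (r = 0.870).

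Z00074620-1 was among the 2 closest probes for 4 members, the 3 overlapping ones (r = 0.939 to 0.944) and Z00034659-1 (r = 0.973). Z00017944-1 was also close to Z00011044-1 (r = 0.935), and Z00024843-1 to Z00074464-1 (r = 0.911) and Z00054827-1 (r = 0.940). For Z00028839-1 the closest were Z00064121-1 (r = 0.961) and Z00025917-1 (r = 0.954). The former was also close to Z00034659-1 (r = 0.956). Z00056511-1 was followed most closely by Z00074026-1 (r = 0.993) and Z00031952-1 (r = 0.991), which share 59 bases with each other. These correlations carry the stage and genotype groups of the 12 arrays in common and say nothing of shared function.

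The choice of members has a threshold, the adjusted p under 0.05 for the stage-averaged difference together with lower values at each stage. Just inside it lay Z00074100-1 (difference -0.66, limma adjusted p = 0.0415) and Z00034659-1 (-0.35, limma adjusted p = 0.0222). Just outside lay Z00020117-1 (-0.47, SE 0.0561, limma adjusted p = 0.0538), Z00023980-1 (-0.36, limma adjusted p = 0.0644) and Z00044277-1 (-0.93, limma adjusted p = 0.0644). The stage differences of Z00020117-1 were -0.34, -0.39 and -0.68, from the earliest stage to the latest. Z00044277-1 had a wider mean difference than 7 of the 8 members, with an SE of 0.117.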

How the data were processed

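Per the file headers, the authors extracted spot intensity in both channels with Agilent Feature Extraction 9.5.1.1. A deposited value table holds log10 values. Its scale and centring were not stated. Every column correlated at r = 1 with the processed Cy3 signal in log10, less the deviation of Cy5 from its mean for the probe, so values rise with eyelid RNA. Its column medians lay between 2.33 and 2.35. It served as an alternative.

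Background was corrected with limma 3.58.1 in R 4.3.3 (normexp, offset 50) and dyes were normalised by loess within arrays, with 1417 control spots at weight 0. The log2 ratio was turned to eyelid over reference, outlier-flagged spots were dropped, and spots of a probe were averaged. The offset draws dim ratios towards 0. No dyes were swapped. The 6 group means were fitted to 12 arrays (6 residual degrees of freedom) with lmFit and eBayes. Tests were 2-sided and adjusted over 32981 probes. The fit was also run on simulated data with independent normal errors and known Tabby shifts, without slide or position effects. That run cannot tell whether the p-values hold for these arrays.

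Members and the rule for probes of similar profile (the 2 of highest r per member) were chosen with earlier results of these data known. Gene lists, cell type markers and Eda could not be looked up, because the probes carry no gene names. Replicates may not come from separate embryos, and p-values then measure only the spread between these samples. The labels' treatment protocol describes footpad skin, whereas every sample is labelled as eyelids. The alternatives were other background, dye, filter, weight, pairing and array choices.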

Additional observations from a re-analysis of the deposited data

Results flagged for a closer look

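The arrays of Z00074100-1 lay in opposite order in the 2 genotypes between E14.5 and E16.5. Both wild-type arrays at E16.5 lay above both at E14.5, a mean change of 0.39 (limma adjusted p = 0.0395). By p this probe ranked only 12634 of 32981 tested probes in that wild-type contrast, so such a call was common. Both Tabby arrays at E16.5 lay below both at E14.5, a mean change of -0.36 that did not pass the threshold (limma adjusted p = 0.0540). The number of tested probes with arrays in opposite order in the 2 genotypes was not counted. The Tabby change minus the wild-type change was -0.75. That difference was not tested, because it is made from the genotype contrasts that chose the member. The opposite signs also stood with median centring (0.15 in wild type and -0.46 in Tabby), in the eyelid channel alone (0.33 and -0.34) and in the authors' deposited table (0.30 and -0.44).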

How the results depend on the processing

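In all 21 alternatives to the stage-averaged difference, and in those at E14.5 and E16.5, each of the 8 members stayed lower in Tabby. At E15.5 the exceptions were Z00011044-1 (0.02), Z00054827-1 (0.04) and Z00034659-1 (0.04) under median centring. That setting moved the median of all tested probes at E15.5 to 0.17, and relative to it these 3 stood at -0.15, -0.13 and -0.13.

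Counts of called members moved as follows, and the cause was not tested. At E16.5 the 6 calls became 0 with processed signals and loess, with median centring and with the authors' deposited table. They became 3 among probes well above background on all 12 arrays. With only the 4 arrays of that stage all 6 were lost, and 1 other member was called, Z00036698-1 (limma adjusted p = 0.0120). Array weights gave 1 call at E14.5 in place of 0. Averaged over stages, 8 calls became 1 with median centring. The changes between stages then gave 2, 1 and 3 calls in place of 6 each (E14.5 to E15.5, E15.5 to E16.5, E14.5 to E16.5). Calls over all tested probes moved as well between the settings that did not leave out a single array. Rises ran from 1546 to 5129, 1408 to 4447 and 4319 to 8330 for these changes, against 4457, 4555 and 7959 in the main fit. Probes called lower in Tabby ran from 0 to 65 at E16.5 (main fit 26) and from 1 to 13 averaged over stages (main fit 9). Without the 4 E15.5 arrays, an alternative chosen after seeing the data, 5 members were called on average and 1 at E14.5.

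Leaving out 1 array, which leaves a lone array in 1 group, moved the count of called members at each stage and on average. At E15.5 and averaged over stages, calls over all tested probes also rose far above the main fit in some of these fits, in both directions. The counts that follow are thus not particular to the members. The average fell to 3 without Tabby E14.5 replicate 2 and to 5 without wild-type E14.5 replicate 1, wild-type E14.5 replicate 2 or Tabby E14.5 replicate 1. At E16.5 it left 0 without wild-type E16.5 replicate 1 or Tabby E16.5 replicate 1, 1 without Tabby E16.5 replicate 2 or either wild-type E14.5 array, 2 without either Tabby E14.5 array and 3 without wild-type E16.5 replicate 2. At E15.5 it gave 4 without wild-type E15.5 replicate 2 and 1 without Tabby E15.5 replicate 2, and at E14.5 1 without either Tabby E15.5 array. Stage changes gave 5 to 7, 5 to 6 and 6 calls. A lone array was assumed to vary like the other groups.

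With the replicate number as a block within each stage, 1 member was called at E16.5 and 1 on average, Z00036698-1 both times. None of the main calls at E16.5 held under this block, and the stage changes kept 6 calls each. Deviations of same-numbered arrays correlated at 0.24 at E16.5, 0.02 at E15.5 and -0.07 at E14.5. Tabby E16.5 and Tabby E15.5, on separate slides, gave 0.23. Such correlations over probes cannot decide whether same-numbered samples belong together, so a pairing of the samples remains unknown. A slide block was not run, because every group lies on 1 slide.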
